A study of Mus musculus with 6 samples.

Results

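The miR-26 family in these mice comprised 2 mature microRNAs (miRNAs), mmu-miR-26a-5p and mmu-miR-26b-5p (miR-26a-5p and miR-26b-5p below), found by name among the 649 entries of the deposited count table, and both were present. The small RNA libraries were made from skin of mice labelled C57, an inbred strain. The groups were mice with a diabetic ulcer and mice with a normal ulcer, labelled day 14, with 3 samples deposited per group. How diabetes and the ulcers were produced, and the age, sex and number of the animals, are not stated in these sources. Whether each sample is a separate animal is not stated either, and the p-values therefore rest on the spread among samples, which may be technical.

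miRNAs are short RNAs that guide Argonaute proteins to messenger RNAs, mainly through bases 2 to 8, called the seed, and lower their output. The miR-26 hairpins lie inside genes of the Ctdsp family, which encode phosphatases of the RNA polymerase II tail, and are transcribed with them. In endothelial cells miR-26a is known to repress Smad1, a transducer of bone morphogenetic protein signals, and blocking it in mouse models of diabetic wounds has been described to increase vessel growth. This gives the family its interest in ulcer skin.

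The 2 mature sequences share the seed and are shown so that their differences can be seen, 5′ to 3′ with the seed in capitals (RefSeq, GRCm38.p6).
miR-26a-5p: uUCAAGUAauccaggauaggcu
miR-26b-5p: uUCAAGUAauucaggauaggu
Over their first 21 bases, counted from the 5′ end of miR-26a-5p, they differ by C11U and C21U, and miR-26a-5p is 22 bases long against 21 for miR-26b-5p. Among 1679 mature mouse miRNAs in the RefSeq table, no other entry had this seed. miR-6371 shares bases 2 to 7 and was not analysed here.

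The hairpins show why the reads of miR-26a-5p cannot be divided between genes, while their 3p strands can be told apart. The mature 5p and 3p strands are in capitals.
Mir26a-1: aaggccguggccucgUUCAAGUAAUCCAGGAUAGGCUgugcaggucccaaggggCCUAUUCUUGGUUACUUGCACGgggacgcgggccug
Mir26a-2: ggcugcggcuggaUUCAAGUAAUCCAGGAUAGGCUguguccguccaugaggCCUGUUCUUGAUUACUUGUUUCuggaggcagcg
Mir26b: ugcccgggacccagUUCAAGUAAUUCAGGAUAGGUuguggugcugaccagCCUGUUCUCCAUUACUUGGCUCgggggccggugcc
All are on the plus strand of GRCm38. Mir26a-1 lies at chr9:119031796-119031885, in an intron of Ctdspl. Mir26a-2 lies at chr10:126995530-126995613 in Ctdsp2, intronic apart from its last base, which is also the first base of an exon of 2 Ctdsp2 transcripts. Mir26b lies at chr1:74394310-74394394, in an intron of Ctdsp1. Mir26a-1 and Mir26a-2 give the same miR-26a-5p.

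Library totals ran from 8949104 to 13421603 miRNA counts. The values of the samples numbered 3 followed from samples 1 and 2 of their group. Normal ulcer 3 equalled 0.50 times normal ulcer 1 plus 0.506 times normal ulcer 2, within 1% for all 226 miRNAs with at least 200 counts. For diabetic ulcer 3 the sum held in TPM, the authors' own depth-scaled unit, with 2.12 as the weight of diabetic ulcer 2, -1.0 as that of diabetic ulcer 1 and a constant of 6.11, within 1% for 85.1% of 249 such miRNAs. miR-26a-5p and miR-26b-5p lay on these sums in both columns. This left 4 independent libraries, numbers 1 and 2 of each group, and the values below are theirs unless stated. One miRNA of skeletal muscle, miR-1a-3p, took 34.4% and 44.4% of counts in the diabetic ulcer libraries, against 16.4% and 65.0% in the normal ulcer libraries, so the share left for other miRNAs differed within the groups too.

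The titles and the authors' table appear to disagree on the groups. The titles call the samples coded D3M normal ulcer and those coded D3C diabetic ulcer, whereas the headings of the authors' deposited comparison table name D3M case and D3C control. Groups here follow the titles, and the label conflict was not resolved by any other source. The headings do not say which group is diabetic. If control meant normal ulcer and the headings were right, each difference below between the titled groups would turn round.

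miR-26a-5p was the second most abundant miRNA in all 4 libraries, behind miR-1a-3p. It had 827193 and 699595 counts in diabetic ulcer 1 and 2, against 1111513 and 732749 in normal ulcer 1 and 2. As a share of all miRNA counts this was 8.89% and 6.50% in the diabetic libraries, against 12.4% and 5.46% in the normal libraries. On this scale normal ulcer 2 was the lowest library and normal ulcer 1 the highest, so the groups overlapped. Counting error is negligible at this depth: the share in normal ulcer 1 has a 95% Wilson interval of 12.40% to 12.44%. Intervals of this kind leave out all error but that of counting, as reads copied by PCR are no separate molecules.

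With miR-1a-3p left out of the totals, miR-26a-5p made up 13.5% and 11.7% of counts in the diabetic libraries, against 14.9% and 15.6% in the normal libraries. Both diabetic libraries then lay below both normal ones. The same order appeared with TMM scaling, which sets libraries to a common level from the bulk of miRNAs. There miR-26a-5p had 74738 and 64218 CPM (counts scaled to a common library size) in diabetic ulcer 1 and 2, against 93358 and 87436 CPM in normal ulcer 1 and 2. The nearest libraries of the groups, diabetic ulcer 1 and normal ulcer 2, were 12697 CPM apart, against 10520 CPM between the diabetic libraries and 5922 CPM between the normal ones. On the other scalings that kept this order the gap was smaller than the distance between the diabetic libraries. It was 13231 against 13715 CPM with RLE scaling, 11412 against 20063 CPM with upper quartile scaling and 13111 against 18595 CPM over totals without miR-1a-3p.

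miR-26b-5p, the less abundant member, made from Mir26b, ranked between 30 and 33 in the libraries. It had 30733 and 27113 counts in the diabetic libraries, against 46289 and 26087 counts in the normal libraries. Its share of all counts was 0.330% and 0.252% in diabetic ulcer, against 0.517% and 0.194% in normal ulcer, again with normal ulcer 1 highest and normal ulcer 2 lowest. TMM-scaled values were 2777 and 2489 CPM in diabetic ulcer 1 and 2, against 3888 and 3113 CPM in normal ulcer 1 and 2. Again no diabetic library reached a normal one on this scale, by a gap of 336 CPM that was smaller than the 775 CPM between the normal libraries.

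**Figure D1:**
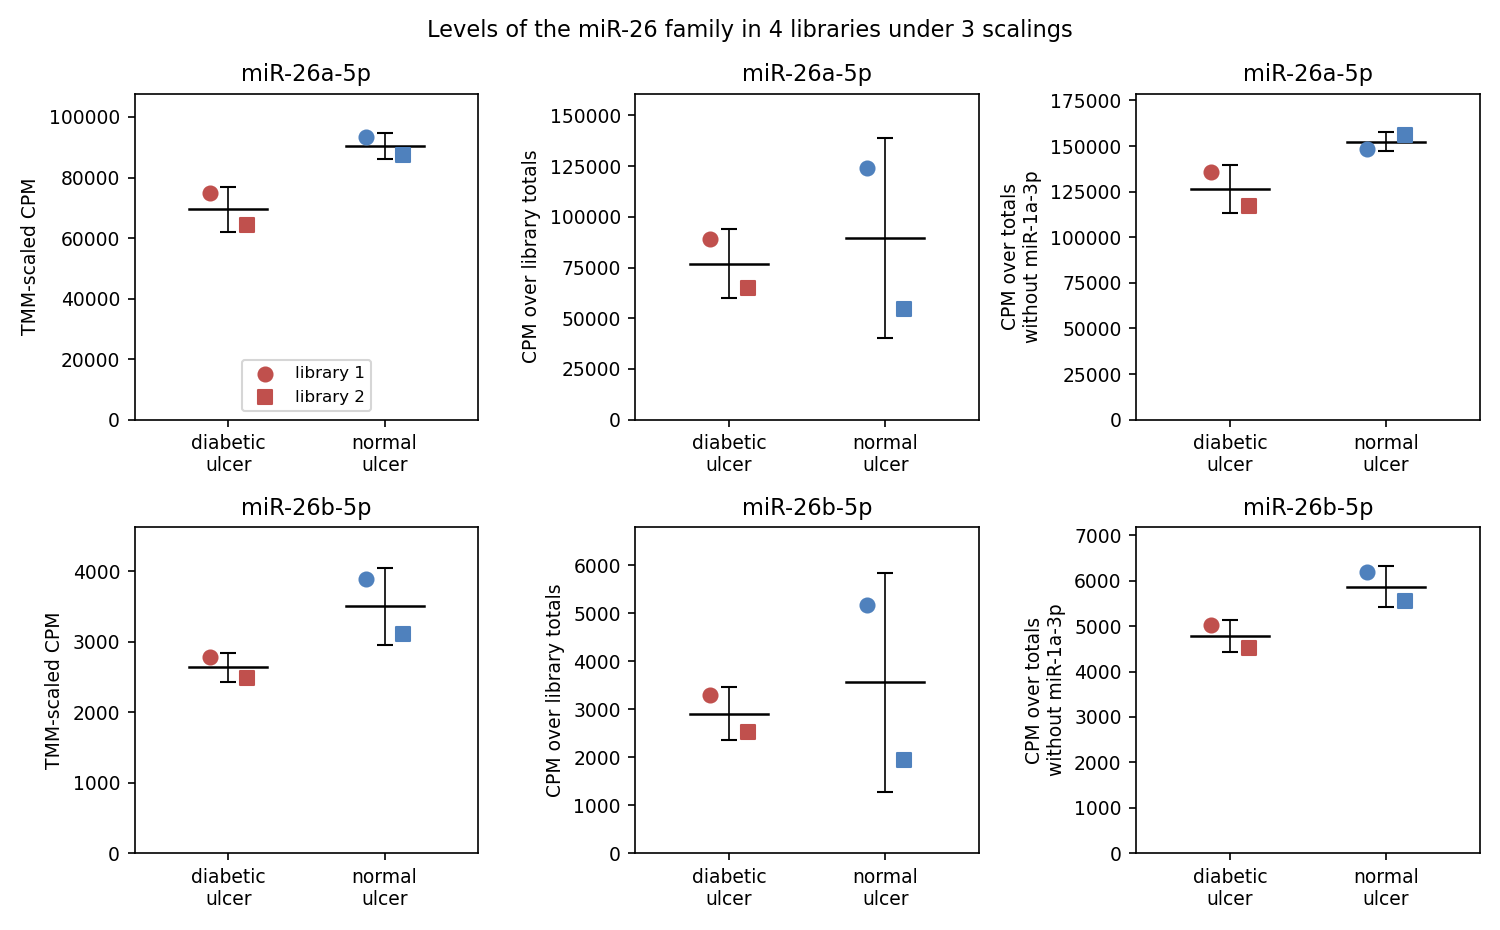
Levels of miR-26a-5p (top) and miR-26b-5p (bottom) in diabetic and normal ulcer libraries, as TMM-scaled CPM, CPM over library totals and CPM over totals without miR-1a-3p. Points are libraries, lines are means and bars are SD (n = 2); the groups overlap over library totals and are apart on the other 2 scales.

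The comparison that the labels imply asks whether the family differs between diabetic and normal ulcer skin. Neither member passed the test. On the TMM scale miR-26a-5p averaged 69478 ± 7439 CPM in diabetic ulcer and 90397 ± 4188 CPM in normal ulcer (SD, n = 2), a ratio of 0.769. Its log2 difference, diabetic minus normal, was -0.38 ± 0.30 (SE, edgeR's quasi-likelihood test, Benjamini-Hochberg adjusted p = 0.999). The 95% interval of the fold ran from 0.455 to 1.30, so the interval holds both lower and higher levels in diabetic ulcer. miR-26b-5p averaged 2633 ± 204 CPM in diabetic ulcer and 3500.4 ± 548 CPM in normal ulcer (SD, n = 2), a ratio of 0.752. Its log2 difference was -0.41 ± 0.27 (SE, edgeR's quasi-likelihood test, adjusted p = 0.999), with an interval of the fold of 0.473 to 1.2. The unadjusted p-values of this test were 0.260 for miR-26a-5p and 0.181 for miR-26b-5p.

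Across all miRNAs 0 of 443 passed with edgeR, so 0% were called in either direction. At an unadjusted p under 0.05 there were 4 with edgeR, 3 with DESeq2 and 4 with limma-voom, and these tools also called 0. Calls appeared in 2 alternatives, neither member among them: over library totals 0.226% were called lower, and without normal ulcer 1 0.647% were called in each direction. The median log2 difference of all tested miRNAs was -0.02, with 232 of 443 below 0. By size, miR-26b-5p was 47th and miR-26a-5p 53rd from the most negative. Of all tested miRNAs, 53 (12%) were lower in both diabetic libraries on the TMM scale, and the members are 2 of these 53, while 9.03% were higher in both. Over totals without miR-1a-3p it was 34 miRNAs (7.69%), both members among them, with 16.7% higher in both. Over library totals it was 3 miRNAs (0.677%) and in the deposited TPM 20 (4.51%), with neither member among them; 10.8% and 9.93% were higher in both on these scales. The TPM of miR-26a-5p were 39187 and 31272 in diabetic ulcer 1 and 2, against 52218 and 34819 in normal ulcer 1 and 2.

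A ratio of 2 miRNAs within a library needs no scaling between libraries. The count of miR-26a-5p relative to another tested miRNA was lower in both diabetic libraries than in both normal ones for 182 of 442 partners, and that of miR-26b-5p for 184 of 442. The median over all 443 tested miRNAs was 27 partners. As many partners as for miR-26a-5p, or more, were found for 24 of the 443, itself included. These ratios share their 4 libraries and are a description. Both members were already lower in both diabetic libraries on the TMM scale, so the counts largely restate that order. The median takes in miRNAs without that order, and ratios higher in both diabetic libraries were not counted.

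**Figure D2:**
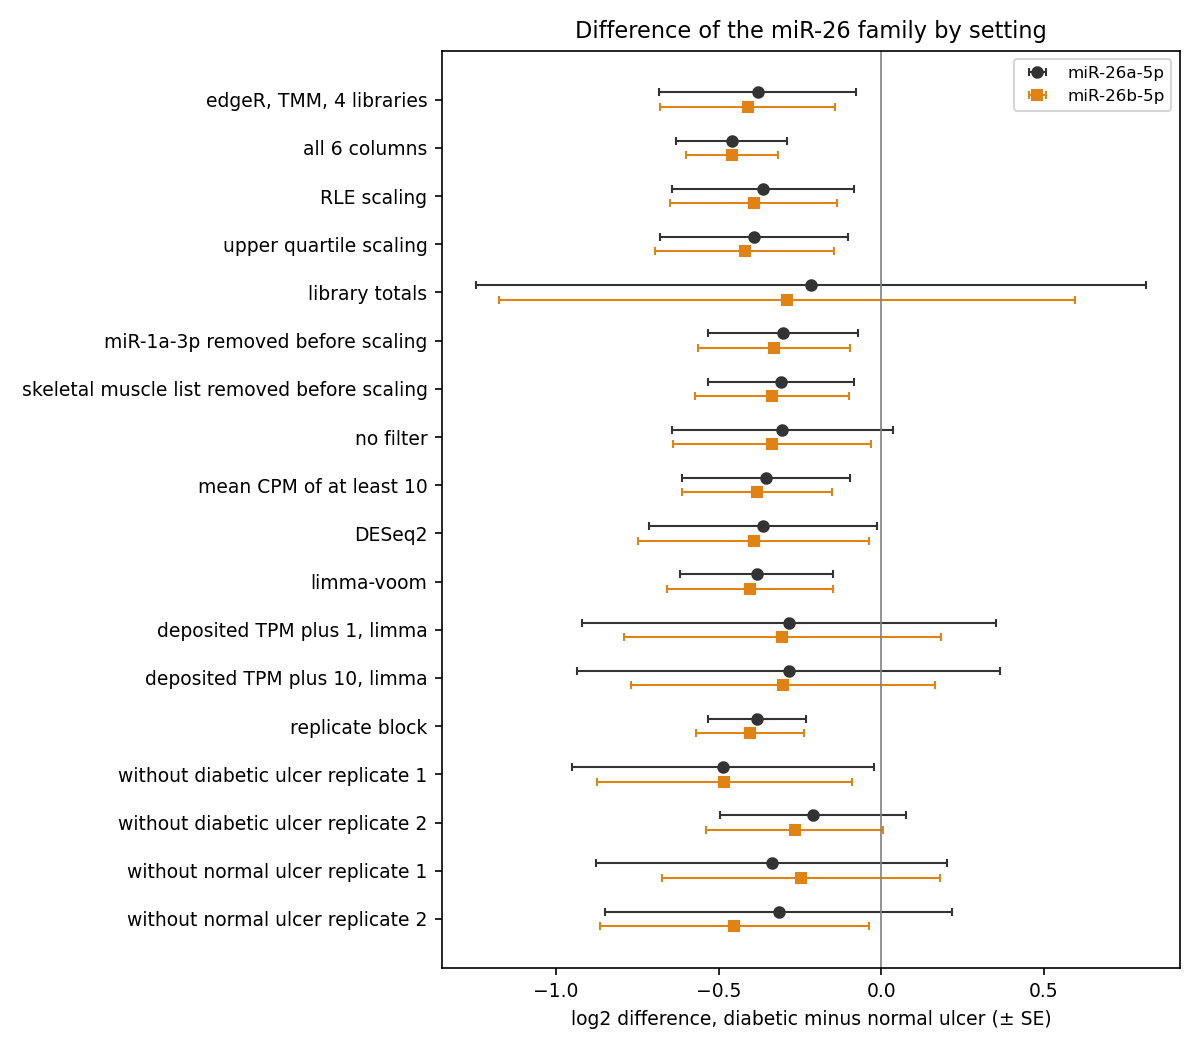
Log2 difference of miR-26a-5p (circles) and miR-26b-5p (squares), diabetic minus normal ulcer, under each setting tried, with bars of 1 SE. All points lie below 0, from -0.49 to -0.21, and the SE is largest over library totals.

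In all 17 alternatives tried both members stayed below 0 and did not pass. With all 6 deposited columns the p-values were smaller, 0.0365 for miR-26a-5p (adjusted p = 0.381) and 0.0176 for miR-26b-5p (adjusted p = 0.281, edgeR's quasi-likelihood test). Diabetic ulcer 3 had the lowest counts of the 6 columns for both, 588790 for miR-26a-5p and 24221 for miR-26b-5p. In TPM, diabetic ulcer 3 follows from diabetic ulcer 1 and 2 for both members, so it was not taken as a further measurement. The sum was fitted in TPM only, and how the counts of diabetic ulcer 3 arose is not shown.

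The proportion of the 2 members differed less between the groups than between the normal libraries. There were 26.9 and 25.8 counts of miR-26a-5p per count of miR-26b-5p in diabetic ulcer 1 and 2, against 24.0 and 28.1 in normal ulcer 1 and 2. The diabetic libraries lay between the normal ones. The log2 ratio averaged 4.72 ± 0.04 in diabetic ulcer and 4.70 ± 0.16 in normal ulcer (SD, n = 2). The difference of 0.02 gave a two-sided exact permutation p of 1, where 2 against 2 libraries cannot go below 0.333. miR-26b-5p made up 3.58% and 3.73% of the family's counts in the diabetic libraries, against 4.0% and 3.44% in the normal libraries. Each read spans the whole mature miRNA, so no length term enters, but ligation differs between sequences and these are proportions of reads.

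The 3p strands, which are mostly discarded when the hairpins mature, were rare, and their groups overlapped. miR-26a-2-3p had 228 and 128 counts in diabetic ulcer 1 and 2, against 205 and 124 in normal ulcer 1 and 2. TMM-scaled it averaged 16.2 ± 6.26 CPM in diabetic ulcer and 16.0 ± 1.71 CPM in normal ulcer (SD, n = 2). Libraries numbered 1 were the higher ones in each group, and the groups overlapped. miR-26b-3p had 50 and 24 counts in the diabetic libraries, against 51 and 25 in the normal ones, or 3.36 ± 1.64 CPM in diabetic ulcer and 3.63 ± 0.920 CPM in normal ulcer (SD, n = 2). miR-26a-1-3p had 17 and 3 counts in diabetic ulcer, against 10 and 1 in normal ulcer. In edgeR's quasi-likelihood test their log2 differences were 0.01 ± 0.40 for miR-26a-2-3p, -0.12 ± 0.48 for miR-26b-3p and 0.79 ± 1.08 for miR-26a-1-3p (SE), each with adjusted p = 0.999.

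Of the 3p counts from the miR-26a hairpins, 93.1% and 97.7% came from Mir26a-2 in diabetic ulcer 1 and 2, against 95.3% and 99.2% in normal ulcer 1 and 2. The widest exact 95% interval was 89.1% to 95.9%, in diabetic ulcer 1. These shares describe the 3p strands and do not divide the 5p reads. There were 3376 and 5340.4 counts of miR-26a-5p per 3p count in the diabetic libraries, against 5170 and 5862 in the normal libraries. For miR-26b the ratio was 615 and 1130 in the diabetic libraries, against 908 and 1043 in the normal libraries. Diabetic ulcer 1 had the lowest ratio for both, and diabetic ulcer 2 lay near the normal libraries. Exact permutation tests gave p = 0.667 for miR-26a and p = 1 for miR-26b (two-sided, n = 2 per group, adjusted p = 1 over the 5 ratios and shares compared). With 2 against 2 libraries the lowest possible p is 0.333, so these tests could not have called a difference.

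**Figure D3:**
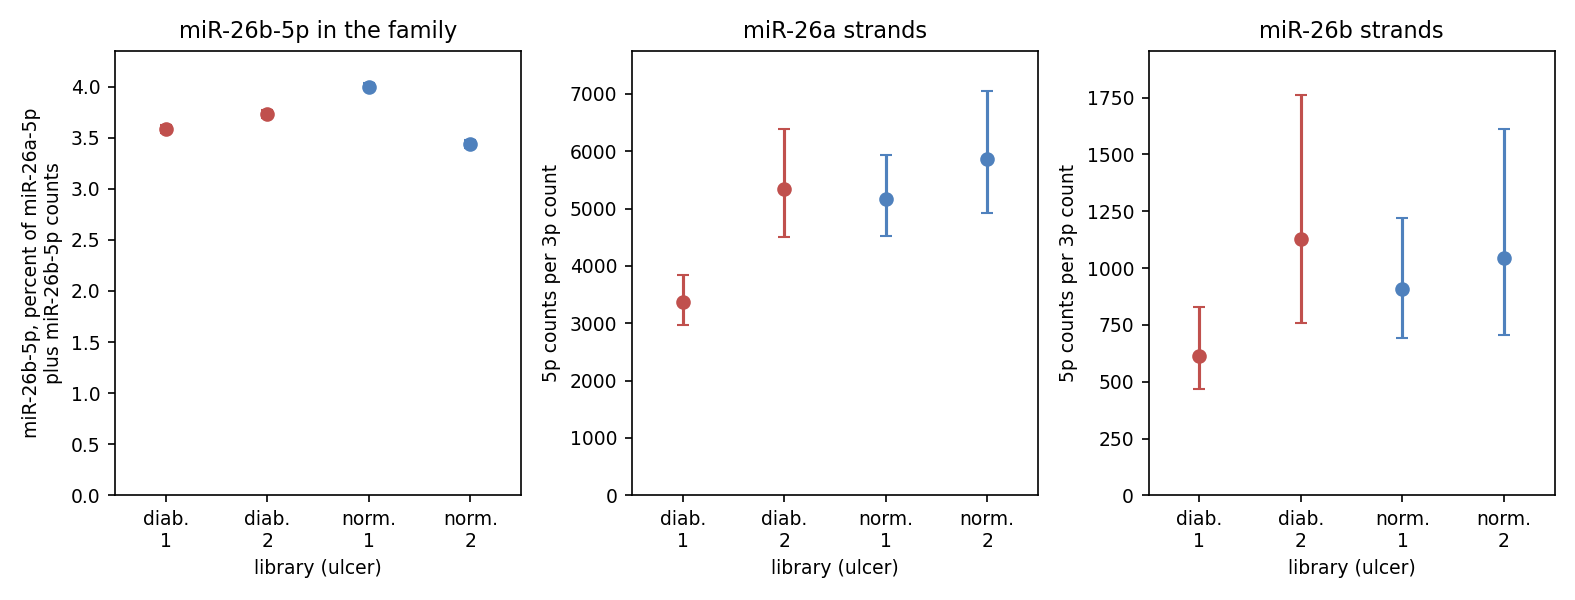
Share of miR-26b-5p in the family's counts, and 5p counts per 3p count for miR-26a and miR-26b, in diabetic ulcer 1 and 2 (red) and normal ulcer 1 and 2 (blue). Bars are 95% intervals for counting error; diabetic ulcer 1 is lowest in both strand ratios, at 3376 and 615.

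Next to miR-26a-5p in read abundance stood miR-148a-3p, miR-27b-3p, let-7i-5p, miR-143-3p, miR-21a-5p, let-7f-5p, let-7g-5p and miR-203-3p. On the TMM scale miR-148a-3p averaged 48440 ± 15568 CPM in diabetic ulcer and 41356 ± 12088 CPM in normal ulcer (SD, n = 2). miR-26a-5p exceeded miR-148a-3p in each library, with the closest values in diabetic ulcer 2 (64218 CPM for miR-26a-5p, 59448 CPM for miR-148a-3p). miR-203-3p, which promotes keratinocyte differentiation, averaged 24755 ± 13449 CPM in diabetic ulcer and 30019 ± 16288 CPM in normal ulcer (SD, n = 2). The groups overlapped for all 8, and their order changed between libraries, miR-203-3p ranking 5 and 12 in the diabetic libraries, against 5 and 11 in the normal libraries.

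**Figure D4:**
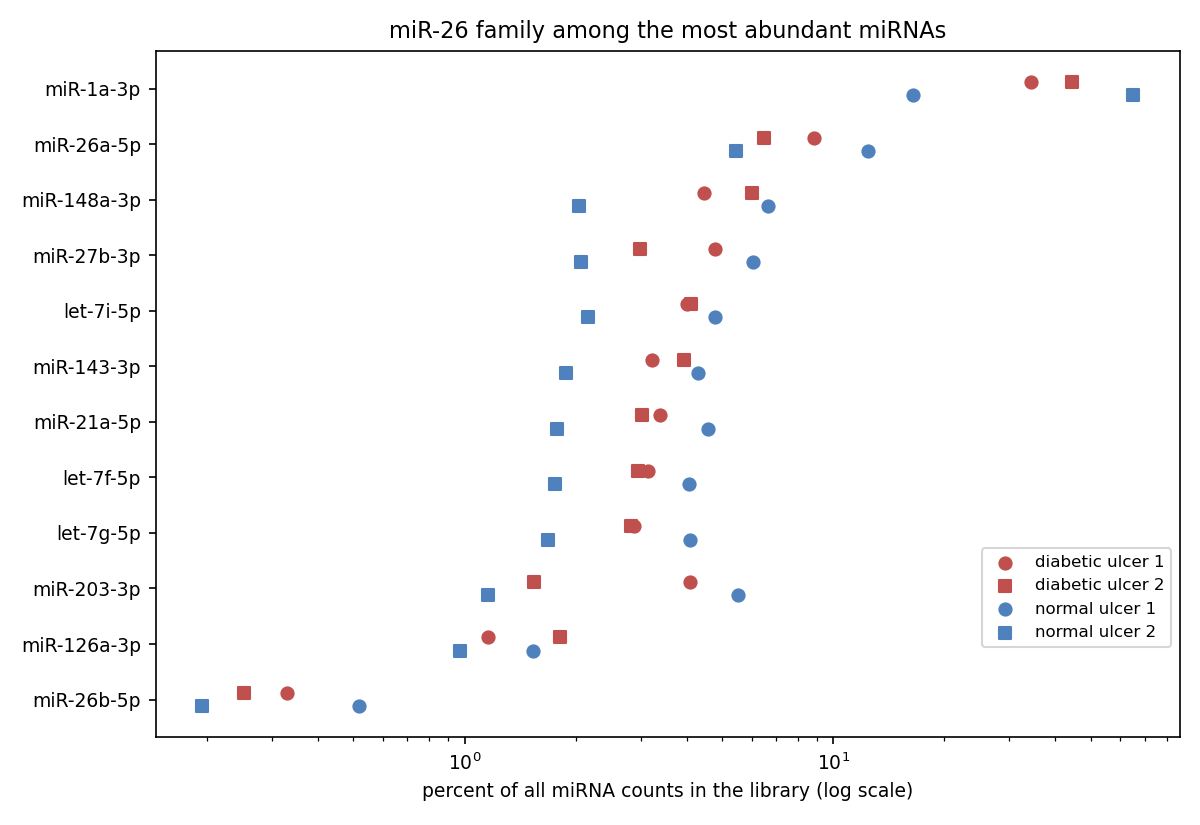
Percent of all miRNA counts in each library (log scale) for the 10 most abundant miRNAs, miR-126a-3p and miR-26b-5p. Red marks diabetic ulcer and blue normal ulcer, with circles for library 1 and squares for library 2; miR-26a-5p lies at 5.46% to 12.4%.

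The profiles most like that of miR-26a-5p over the 4 libraries were sought among miRNAs with a mean of at least 100 TMM-scaled CPM, by root mean square distance of log2 values after centring each miRNA. The closest were miR-127-3p (0.0401), miR-541-5p (0.0676), miR-26b-5p (0.0835), miR-29a-3p (0.0882) and miR-16-5p (0.0906). For miR-26b-5p they were miR-146a-5p (0.0336), miR-195a-5p (0.0427), miR-26a-5p (0.0835), miR-155-5p (0.0945) and miR-127-3p (0.0994). miR-127-3p belongs to the imprinted Dlk1-Dio3 cluster, and miR-146a-5p and miR-155-5p are induced in inflammation. miR-127-3p averaged 2110.2 ± 127 CPM in diabetic ulcer and 2693 ± 68.0 CPM in normal ulcer (SD, n = 2). miR-146a-5p averaged 1608 ± 66.0 CPM in diabetic ulcer and 2084 ± 349 CPM in normal ulcer (SD, n = 2). None of these passed on its own (edgeR's quasi-likelihood test, adjusted p = 0.999 for each). The likeness is a description over 4 libraries, with 140 candidates compared for each member. As these miRNAs were chosen for profiles like the members', their lower diabetic means follow from that choice.

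**Figure D5:**
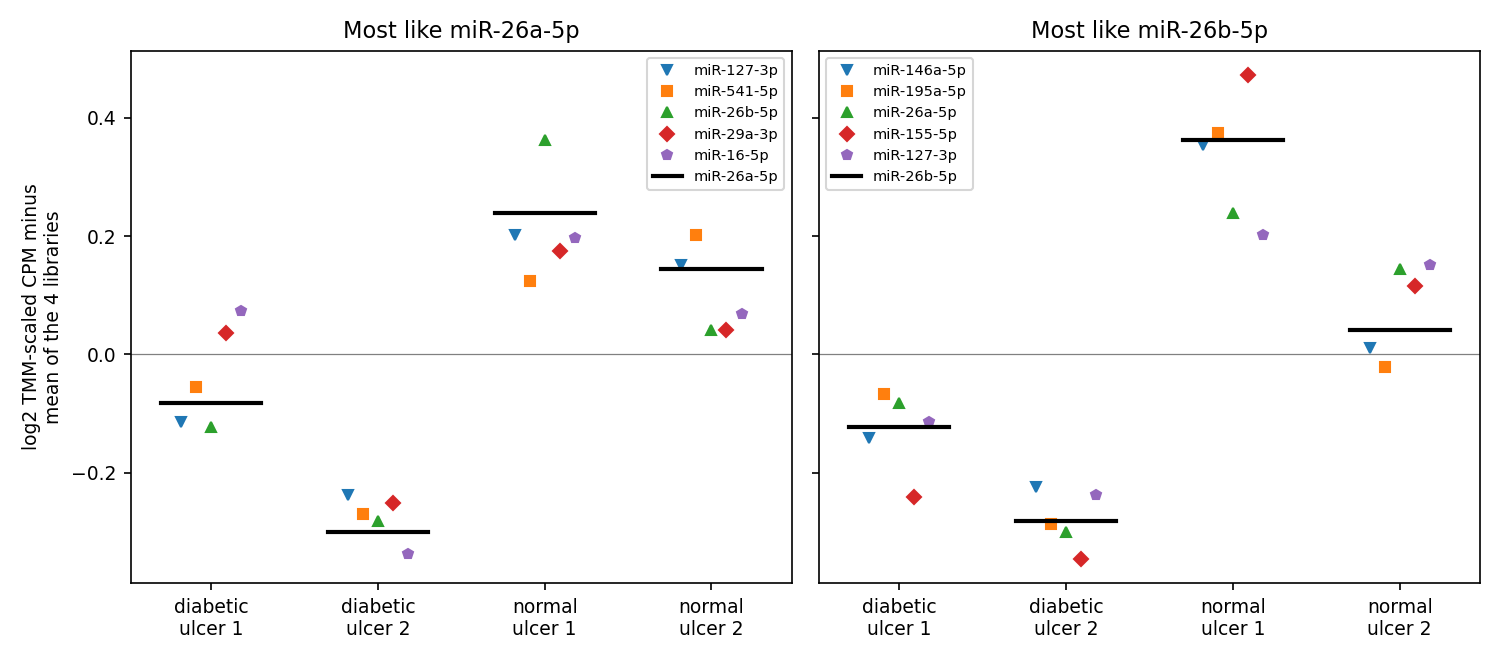
Log2 TMM-scaled CPM of miR-26a-5p (left) and miR-26b-5p (right), minus the mean of the 4 libraries, as black bars, with the 5 miRNAs of most like profile as symbols. Both members are lowest in diabetic ulcer 2 and highest in normal ulcer 1.

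Other miRNAs linked to vessel growth formed a list of 50, all of them tested. With edgeR 0 were called in either direction, with 13 above and 37 below 0 (median log2 difference -0.10), beside 232 of 443 below 0 among all miRNAs. The 1 at an unadjusted p under 0.05 was miR-19b-3p, named after its values were seen. The median of all miRNAs was -0.02. Over library totals 23 of 50 were below 0 (median 0.02), beside 131 of 443 among all miRNAs (median 0.17). On that scale fewer of the list and fewer of all miRNAs were thus below 0. With limma on deposited TPM it was 23 of 47 (plus 1) and 24 of 47 (plus 10), beside 136 and 141 of 375 among all. Without normal ulcer 1 it was 22 of 50 (median 0.03), beside 210 of 464 among all (median 0.05). In the other 13 alternatives it was 26 to 40, out of 50, or out of 45 for a mean CPM of at least 10. The 26, without diabetic ulcer 2, stood beside 238 of 460 among all miRNAs. The 40, with upper quartile scaling, stood beside 248 of 443. The most abundant members of the list were miR-27b-3p, miR-21a-5p, let-7f-5p, miR-10b-5p, miR-378a-3p and miR-126a-3p. miR-126a-3p, the main miRNA of endothelial cells, had 9763 and 17950.4 CPM in diabetic ulcer 1 and 2, against 11532 and 15566 CPM in normal ulcer 1 and 2 on the TMM scale. Its diabetic libraries lay on either side of the normal ones. miR-21a-5p, raised in many wounds, averaged 29266 ± 1029 CPM in diabetic ulcer and 31465 ± 4188 CPM in normal ulcer (SD, n = 2).

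Relative to this endothelial miRNA, there were 7.66 and 3.58 counts of miR-26a-5p per count of miR-126a-3p in diabetic ulcer 1 and 2, against 8.10 and 5.62 in normal ulcer 1 and 2. Libraries numbered 1 had the higher ratio in each group, and the groups overlapped (exact permutation p = 0.667, two-sided, n = 2 per group). This test cannot go below 0.333, so it could not have called a difference. In whole skin, fewer cells of a type and less RNA per cell cannot be told apart.

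The marker miRNAs of other cell types varied beside these values. The 5 skeletal muscle miRNAs summed to 35.7% and 44.9% of counts in the diabetic libraries, against 17.2% and 66.1% in the normal libraries, and miR-499-5p was at 0 in normal ulcer 1. The 7 epithelial miRNAs summed to 5.09% and 1.96% in diabetic ulcer, against 6.99% and 1.44% in normal ulcer, with library 1 the higher in each group. The 2 endothelial strands summed to 1.19% and 1.85% in diabetic ulcer, against 1.57% and 0.988% in normal ulcer. The 4 leukocyte miRNAs summed to 0.0709% and 0.139% in diabetic ulcer, against 0.0940% and 0.0539% in normal ulcer. The 3 erythroid miRNAs summed to 0.110% and 0.106% in diabetic ulcer, against 0.0788% and 0.0990% in normal ulcer. The 3 fibroblast miRNAs summed to 1.85% and 1.10% in diabetic ulcer, against 2.31% and 0.694% in normal ulcer. The 2 smooth muscle miRNAs summed to 3.32% and 4.01% in diabetic ulcer, against 4.43% and 1.94% in normal ulcer. No list other than skeletal muscle had a member at 0. The groups overlapped for each list but the erythroid one, a higher share in both diabetic libraries that overlapped in TMM-scaled CPM. That share was mostly the entry of miR-486a-5p and miR-486b-5p, at 0.08746% and 0.07892% in diabetic ulcer, against 0.05265% and 0.07878% in normal ulcer. miR-451a overlapped, at 0.0224% and 0.0263% in diabetic ulcer, against 0.0259% and 0.0201% in normal ulcer. The part of cell composition in the miR-26 difference was not tested.

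The authors' deposited table gives a fold change of D3M over D3C of 1.37 for miR-26a-5p (p = 0.190, q = 0.991) and 1.35 for miR-26b-5p (p = 0.246, q = 0.991), made with unpaired DESeq2 per its headings. This does not compare the titled groups. In the authors' deposited table the D3C mean was 0.931 times the count of diabetic ulcer 2 alone, within 0.1% for all 439 miRNAs with a base mean of at least 10. The D3M mean was the sum of 0.283 times normal ulcer 1, 0.412 times normal ulcer 2 and 0.329 times diabetic ulcer 1, within 0.1% for all 433 such miRNAs. The fold change therefore sets diabetic ulcer 2 against the other 3 independent libraries, diabetic ulcer 1 included. The counts of diabetic ulcer 3 did not match its own TPM across the column. Only 1.90% of its entries lay within 1% of its median of 17.9 counts per TPM, while 99.7% did so in diabetic ulcer 1 (median 21.1) and 99.4% in diabetic ulcer 2 (median 22.4). The 3p strands had 6.91 (miR-26a-2-3p), 29.1 (miR-26a-1-3p) and 24.98 (miR-26b-3p) counts per TPM in diabetic ulcer 3, and the members 21.9 (miR-26a-5p) and 21.8 (miR-26b-5p). The counts of 17 for miR-26a-1-3p and 50 for miR-26b-3p in diabetic ulcer 3 were those of diabetic ulcer 1.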

How the data were processed

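A mirVana kit was used for extraction, per the labels' protocols. The submitters' processing notes name GRCm38 and mm10, which are names of the same build; no aligner, counter or miRNA release is stated in these sources. The authors deposited raw counts per mature miRNA, TPM values, and a comparison table with base means and miRNA lengths as other values, a fold change (ratio) with its log2 form, and p-value and q-value columns.

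Samples were grouped by title and columns matched by the code in it; 0 value columns were left over. edgeR 4.0.16 (R 4.3.3, quasi-likelihood, TMM, filterByExpr) was fitted to all miRNAs in the 4 independent libraries, with group as the only term and Benjamini-Hochberg adjustment at 0.05. Alternatives were DESeq2 1.42.0, limma 3.58.1 (voom, and log2 of deposited TPM plus 1 or 10, for a mean TPM of at least 1), RLE, upper quartile and total scaling, filters, removal of muscle miRNAs, a replicate block, all 6 columns and each library left out.

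On simulated data (2 against 2, 438 miRNAs tested), 100 miRNAs were set to change 2-fold and 100 to change 4-fold. Recovery was 22.2% at a 2-fold change and 83.8% at a 4-fold change, with unchanged miRNAs making up 1.87% of calls. So many changed miRNAs ease the adjustment, whereas the real comparison called 0 of 443. These rates are therefore not the power of the real comparison, and changes below 2-fold were not simulated. Named miRNAs were the members, their 3p strands, the 5 most like each, the 10 most abundant, and the most abundant of each list (up to 4, or 6 for angiogenesis); the text gives part of these. The lists hold skeletal muscle, epithelial, endothelial, erythroid, leukocyte, fibroblast, smooth muscle and angiogenesis miRNAs. Members and lists were chosen with earlier results of these data known. All 5 miR-26 strands matched RefSeq (GRCm38.p6) exactly, and host genes are from GENCODE on GRCm38, with coordinates counted from 1.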

Additional observations from a re-analysis of the deposited data

How the results depend on the processing

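Under the 17 alternatives the log2 difference of miR-26a-5p ran from -0.49 to -0.21 and that of miR-26b-5p from -0.48 to -0.25, always below 0 and never past the threshold. Leaving out single libraries gave -0.49 to -0.21 for miR-26a-5p and -0.48 to -0.25 for miR-26b-5p; a lone library is then assumed to vary like the other group. The count of called miRNAs was 1 over library totals (miR-499-5p, chosen after its values were seen), 0 to 6 when single libraries were left out (6 without normal ulcer 1) and 0 otherwise. The difference in the log2 ratio of miR-26a-5p to miR-26b-5p, 0.02, was -0.0088 over all 6 columns and ran from -0.092 to 0.134 when single libraries were left out; its sign is not determined. The cause of these changes was not tested. The order of the members' libraries (diabetic below normal) was lost over library totals and in the deposited TPM and kept with RLE, upper quartile and totals without miR-1a-3p; this comparison of orders, and the counts of the angiogenesis list by setting, were added after seeing the data. Library totals move the median of all miRNAs from -0.02 to 0.17.

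The deviations of the libraries numbered 1 from their group means correlated between the groups (0.454 over 443 miRNAs). With 2 libraries per group those numbered 2 give the same value, and renumbering 1 group would reverse its sign. The correlation therefore cannot show a pairing, and the labels state none. The root mean square log2 difference between libraries does not depend on numbering. It was 0.415 between normal ulcer 1 and diabetic ulcer 1, and 0.555 between normal ulcer 2 and diabetic ulcer 2. Within groups it was larger, 0.742 in normal ulcer and 0.655 in diabetic ulcer. Each library was thus closer to a library of the other group than to its own. Why this was so was not tested. With the replicate block the log2 differences were -0.38 ± 0.15 for miR-26a-5p and -0.40 ± 0.17 for miR-26b-5p (SE, edgeR, adjusted p = 0.992 for both), the log2 ratio difference was 0.02, 0 miRNAs were called and 20 had an unadjusted p under 0.05. Depth limits the 3p strands, at 1 to 228 counts, and not the members.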
